A study of Mus musculus with 14 samples.

Results

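Accessible chromatin at 6 cytosolic sulfotransferase genes, Sult2a1, Sult2a2, Sult3a1, Sult1d1, Sult1e1 and Sult1a1, was followed in an ATAC-seq data set of mouse liver, which maps open chromatin by the sites a transposase can reach. An accessible interval belonged to a gene if its midpoint lay inside the RefSeq bounds of that gene, or if the gene was the nearest protein-coding gene within 50000 bp. By this rule the 6 genes, out of 21900 protein-coding genes, held 26 of 88203 intervals measured on chow and 30 of 105801 measured on the high-fat diet. Sult2a1 held 5 intervals in each table, Sult2a2 held 3 and 3, Sult1d1 held 3 and 3, Sult1e1 held 5 and 5, Sult3a1 held 3 and 2, and Sult1a1 held 7 and 12 (chow and high-fat).

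The 14 libraries, each from 50 mg of frozen liver, came from female mice that all carried a floxed Matr3 gene. Its product, matrin-3, is an RNA- and DNA-binding protein of the nuclear matrix. Knockout animals also carried an Albumin-Cre transgene, in which regulatory sequence of the albumin gene drives the recombinase in hepatocytes, and floxed littermates served as controls. Liver cells in which the transgene was never active keep the gene in such a model. From 7 weeks of age the mice ate chow (3 knockout, 3 floxed) or a diet with 60 kcal% fat (4 knockout, 4 floxed) for 16 weeks. High-fat animals were fasted for 12 h before collection, whereas for chow the sources used here do not say.

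Cytosolic sulfotransferases move a sulfonate group from the donor PAPS onto steroids, bile acids, phenols, catecholamines and xenobiotics, which mostly makes the product more soluble and less active. Enzymes of the SULT2A subfamily act on hydroxysteroids and bile acids, and in mice their liver expression is typically higher in females. SULT1E1 is the estrogen sulfotransferase, SULT1A1 is the main phenol sulfotransferase, mouse SULT1D1 acts on catecholamines, and mouse SULT3A1 acts on amines. Several of these genes respond to the xenobiotic and bile acid receptors of the liver.

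The genes lie in 4 places of the mouse genome (mm10). Sult1d1 (chr5:87554650-87569006) and Sult1e1 (chr5:87575968-87591611) are neighbours on the minus strand of chromosome 5. Sult2a2 (chr7:13733506-13779637) and Sult2a1 (chr7:13796246-13837410) are neighbours within the SULT2A cluster of chromosome 7. Sult1a1 (chr7:126672865-126690443, minus strand) lies elsewhere on chromosome 7, and Sult3a1 (chr10:33851020-33879475, plus strand) on chromosome 10. Start sites and strands were taken from RefSeq promoter windows, which matched 4 of the 6 genes: the windows of Sult1d1, Sult1e1, Sult1a1 and Sult3a1 were used here, and Sult2a1 and Sult2a2 are named only. An accessible interval covered the start of Sult1d1 and of Sult1a1 in both tables and that of Sult3a1 on chow, whereas no interval covered the start of Sult1e1. The starts used for Sult1a1 (126676418) and Sult3a1 (33857722) lay inside the RefSeq bounds of these genes, not at their 5′ ends. An interval also crossed the 5′ bound of each in both tables, the upper bound of Sult1a1 and the lower bound of Sult3a1.

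The 3 start regions that were accessible are shown together with that of Sult2a3, another SULT2A gene that fell with Sult2a1 and Sult2a2 (described further on). Each runs 5′ to 3′ on the strand of its gene, from 250 bases before the start to 50 bases counted from it, from RefSeq on GRCm38.p6 (the assembly of mm10). The positions are chr5:87568957-87569256 (minus strand) for Sult1d1, chr7:126676369-126676668 (minus) for Sult1a1, chr10:33857472-33857771 (plus) for Sult3a1 and chr7:14122999-14123298 (minus) for Sult2a3. Capitals mark matches, on either strand, to 1 of 6 short motifs of liver regulators.
Sult1d1: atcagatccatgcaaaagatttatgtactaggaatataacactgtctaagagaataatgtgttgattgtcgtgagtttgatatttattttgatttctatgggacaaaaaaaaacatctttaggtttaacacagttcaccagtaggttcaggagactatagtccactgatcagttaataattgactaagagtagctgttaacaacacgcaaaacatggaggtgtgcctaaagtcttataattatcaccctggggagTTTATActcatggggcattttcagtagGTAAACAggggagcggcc
Sult1a1: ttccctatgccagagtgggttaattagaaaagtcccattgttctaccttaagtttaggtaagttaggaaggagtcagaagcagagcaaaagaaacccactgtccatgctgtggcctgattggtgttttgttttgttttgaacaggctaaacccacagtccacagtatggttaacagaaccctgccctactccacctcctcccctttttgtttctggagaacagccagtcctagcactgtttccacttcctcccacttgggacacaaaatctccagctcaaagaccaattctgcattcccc
Sult3a1: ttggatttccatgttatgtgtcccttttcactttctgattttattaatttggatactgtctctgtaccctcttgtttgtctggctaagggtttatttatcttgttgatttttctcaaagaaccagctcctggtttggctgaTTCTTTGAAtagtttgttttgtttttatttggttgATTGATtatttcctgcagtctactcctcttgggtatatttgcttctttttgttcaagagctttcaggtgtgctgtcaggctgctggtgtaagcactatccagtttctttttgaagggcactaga
Sult2a3: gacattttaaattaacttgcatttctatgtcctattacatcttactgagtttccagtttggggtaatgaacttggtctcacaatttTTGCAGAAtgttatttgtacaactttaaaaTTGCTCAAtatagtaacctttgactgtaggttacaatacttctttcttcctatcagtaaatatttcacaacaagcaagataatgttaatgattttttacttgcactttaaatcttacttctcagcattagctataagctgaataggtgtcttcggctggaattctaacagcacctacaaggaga
The motifs searched were a STAT element (TTCNNNGAA, in 8.30% of 32851 promoter windows), a nuclear receptor site (AGGTCA, 16.3%), a FOXA element (TGTTTAC, 3.65%), a C/EBP element (TTGCNNAA, 10.8%), an ONECUT element (ATCAAT, 7.54%) and a TATA box (TATAAA, 13.6%). Sult1d1 held a FOXA match and a TATA match, Sult3a1 held a STAT and an ONECUT match, and Sult2a3 held 2 C/EBP matches. No motif of the 6 matched in the Sult1a1 window. None of the marked matches overlapped another, and a match is a description of letters, not a binding site.

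Reads within intervals totalled 15.5 to 35.0 M (megareads) in the chow libraries and 7.59 to 10.4 M in the high-fat libraries. Interval values are CPM (counts per megaread) of these totals, each total first adjusted by TMM scaling. Gene sums were scaled likewise, but to the reads in intervals assigned to genes, so interval and summed values are not on the same scale. Of the intervals of the albumin gene (Alb), whose regulatory sequence drives the transgene, 1 was called higher in the knockout on each diet (log2 fold change 1.29, SE 0.16, edgeR adjusted p = 0.0410 on chow and 1.42, SE 0.12, adjusted p = 8.96e-08 on the high-fat diet). It was singled out after its values were seen, and of the 34 Alb intervals on the high-fat diet 19 were called lower. All 6 hepatocyte marker genes held intervals, with a summed level of 3918 to 5791 CPM over the chow libraries and 2216 to 4630 CPM over the high-fat libraries. In a principal component analysis of the high-fat libraries, the first component held 25.7% of the variance, and the genotypes overlapped on it. Floxed 3 (score 0.0591) lay above knockouts 1 (−0.0150) and 2 (0.0399), and the other floxed libraries lay below all knockouts. Fold changes compare knockout with floxed on the log2 scale, and a change is called at an adjusted p under 0.05 over the whole table.

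Since every interval spans 501 bp, levels of different genes can be compared as CPM per interval, taken here from the gene sums. In floxed livers on the high-fat diet the order was Sult1a1 (11.7 ± 2.79 CPM per interval, SD, n = 4), Sult1e1 (10.5 ± 1.55), Sult2a1 (8.91 ± 1.26), Sult1d1 (6.98 ± 0.414), Sult2a2 (6.83 ± 0.494) and Sult3a1 (5.12 ± 0.768). Neighbours in this order overlapped in their library ranges except for Sult2a1 over Sult1d1 (lowest library 7.80 against highest 7.52) and Sult2a2 over Sult3a1 (6.10 against 5.86). In high-fat knockout livers Sult2a1 (4.34 ± 0.819) and Sult2a2 (3.26 ± 0.703) were the lowest of the 6 genes, behind Sult3a1 (5.71 ± 1.08), although the Sult3a1 range from 4.19 to 6.50 overlapped both. On chow, in floxed livers, Sult1a1 (10.3 ± 1.36, n = 3) and Sult1e1 (10.2 ± 1.25) were ahead of the remaining 4 genes, which lay between 6.03 and 7.30 CPM per interval with overlapping ranges.

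**Figure D1:**
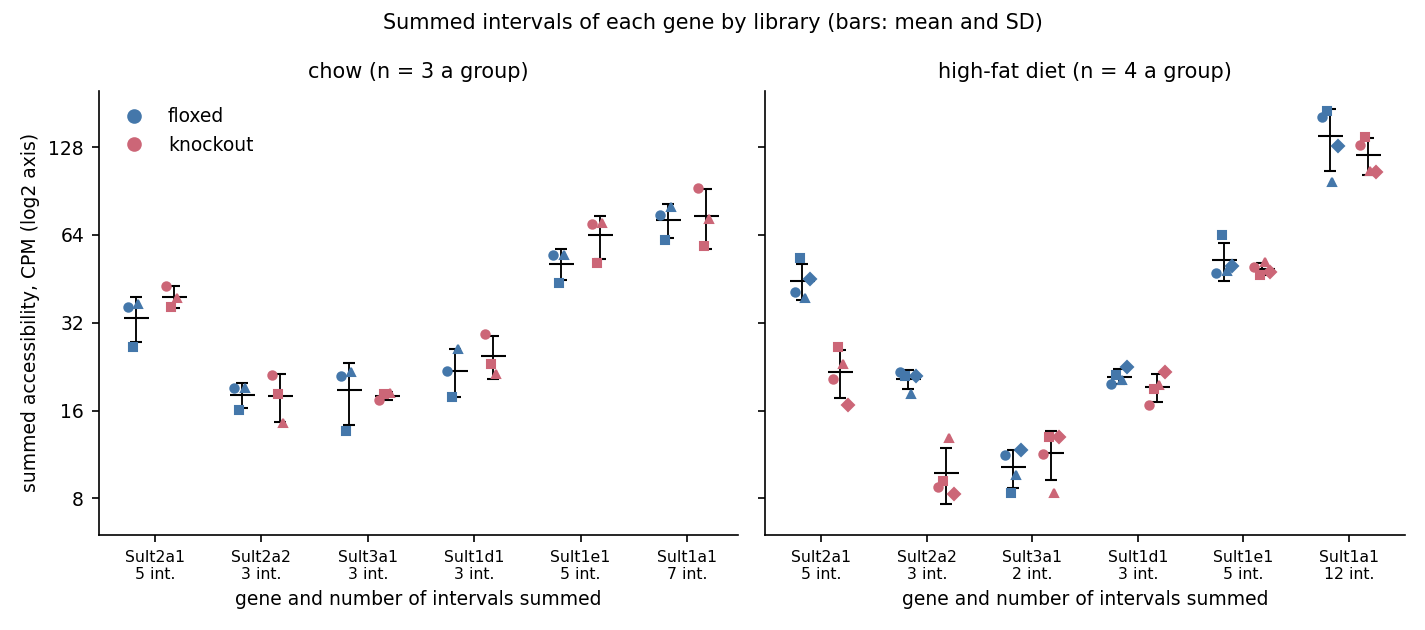
Summed accessibility of the intervals of each gene in every library, in CPM on a log2 axis, for chow (left, n = 3 a group) and the high-fat diet (right, n = 4); points are libraries and bars show mean and SD. On the high-fat diet the knockout libraries of Sult2a1 and Sult2a2 lie below all floxed libraries, and the groups overlap for the other 4 genes and for all 6 genes on chow.

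On the high-fat diet, accessibility around Sult2a1 and Sult2a2 was lower in knockout than in floxed livers, and the other 4 genes did not pass the test. Sult2a1 encodes the hydroxysteroid sulfotransferase best known for acting on DHEA and bile acids. Its summed intervals held 40.8, 53.2, 39.0 and 45.1 CPM in floxed libraries 1 to 4, and 20.5, 26.4, 23.2 and 16.7 CPM in knockout libraries 1 to 4. The highest knockout library lay below the lowest floxed library. The log2 fold change was −1.04, from a mean of 44.5 ± 6.32 to 21.7 ± 4.09 CPM (SD, n = 4; SE of the fold change 0.13, edgeR adjusted p = 0.000761).

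Sult2a2, its neighbour and close relative, held 21.6, 21.0, 18.3 and 21.0 CPM in the floxed libraries and 8.73, 9.20, 12.9 and 8.30 CPM in the knockouts. Again no knockout library reached a floxed one. The log2 fold change was −1.07 (SE 0.15, edgeR adjusted p = 0.00153), from 20.5 ± 1.48 to 9.79 ± 2.11 CPM (n = 4). Over all genes, 0.166% of 16280 summed genes were called lower on this diet, and 2 of the 6 sulfotransferase genes were among them. The 2 calls held under each of the alternatives tried, with log2 fold changes between −1.15 and −0.93 for Sult2a1 and between −1.23 and −1.01 for Sult2a2.

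Of the 30 high-fat intervals of the 6 genes, 5 were called, and each of these was lower in the knockout and belonged to Sult2a1 (3) or Sult2a2 (2); over all intervals 0.303% were called lower. All 8 intervals of the pair had fold changes below 0, with a median of −1.07, against −0.01 over all intervals assigned to genes. All 8 were named by the authors from peaks of floxed livers, so their choice was not independent of the floxed libraries. Intervals are identified here by the distance of their centre from the lower-coordinate bound of the gene, since no start site was at hand for these genes.

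The most accessible interval of Sult2a1, at 18.1 kb (chr7:13814058-13814558), held 18.2, 24.0, 14.3 and 22.2 CPM in floxed libraries 1 to 4 and 8.91, 12.1, 11.8 and 6.95 CPM in knockouts 1 to 4. All knockout values were below all floxed values. It fell by 0.99 on the log2 scale (SE 0.18, edgeR adjusted p = 0.00457). The RefSeq table also places a pseudogene, Kat6b-ps2, at its midpoint.

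The interval at 21.0 kb (chr7:13817007-13817507) held 7.53, 9.26, 7.92 and 6.11 CPM in the floxed and 3.75, 3.09, 3.40 and 3.66 CPM in the knockout libraries. The knockouts lay close together, and their log2 fold change was −1.15 (SE 0.23, adjusted p = 0.00810). At 23.2 kb (chr7:13819189-13819689) the floxed libraries held 4.61, 5.07, 4.40 and 3.11 CPM and the knockouts 1.61, 1.54, 1.57 and 0.379 CPM, a log2 fold change of −1.73 (SE 0.37, adjusted p = 0.0154). This was the weakest interval of the gene, with 3 to 52 reads per library.

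The remaining intervals of Sult2a1 were not called. At 14.2 kb the mean was 4.53 ± 0.606 CPM (floxed) and 2.68 ± 0.550 CPM (knockout) (log2 −0.75, SE 0.28, adjusted p = 0.293), without overlap of the groups. At 41.2 kb, across the upper bound of the gene (chr7:13837156-13837656), it was 5.37 ± 1.36 against 2.96 ± 0.756 CPM (log2 −0.85, SE 0.28, adjusted p = 0.182), with overlap.

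In Sult2a2, the interval across the lower bound (chr7:13733256-13733756) held 7.08, 8.19, 5.78 and 5.65 CPM in the floxed and 2.90, 2.43, 2.87 and 3.28 CPM in the knockout libraries. Every knockout was below every floxed library, with a log2 fold change of −1.22 (SE 0.25, adjusted p = 0.00963). The interval at 37.1 kb (chr7:13770393-13770893) held 8.32, 4.78, 6.91 and 6.11 CPM against 2.36, 3.20, 3.79 and 2.27 CPM, again without overlap (log2 −1.16, SE 0.26, adjusted p = 0.0229). At 18.4 kb, between them, the groups overlapped, because knockout 3 held 5.61 CPM and floxed 3 held 4.52 CPM (log2 −0.81, SE 0.28, adjusted p = 0.226). Leaving out floxed library 2 left 2 of the 5 called intervals, leaving out knockout 4 left 3, and only the 18.1 kb interval of Sult2a1 was called under every alternative run on the high-fat intervals.

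**Figure D2:**
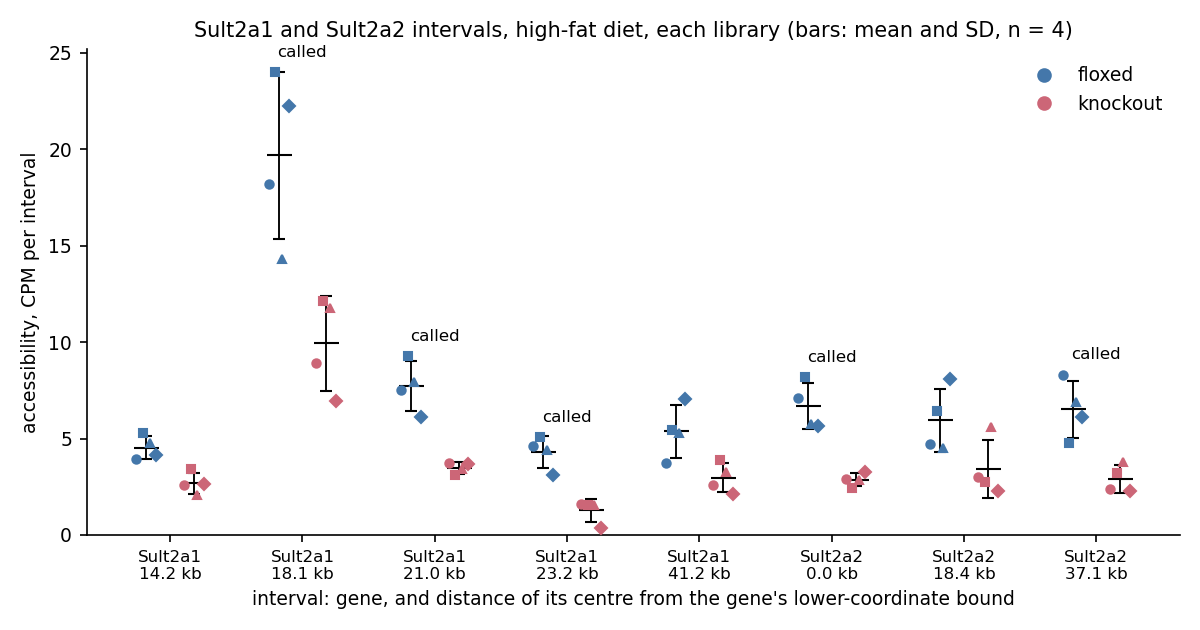
Accessibility of the 8 intervals of Sult2a1 and Sult2a2 on the high-fat diet in CPM, 1 point per library (blue floxed, red knockout), with mean and SD (n = 4); the horizontal axis names each interval by gene and distance from the lower-coordinate bound of the gene. Knockout points lie below all floxed points in 6 of the 8 intervals, and the 5 called intervals are marked.

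Sult2a1 and Sult2a2 are close relatives, and reads that fit more than 1 SULT2A gene may have been placed in either; the sources used here do not say how the authors treated such reads. In bulk tissue, fewer hepatocytes and less accessibility per hepatocyte cannot be told apart. Of the hepatocyte markers, Ttr was called lower in its sum on the high-fat diet (log2 −0.79, SE 0.11, adjusted p = 0.00152). Alb was not called in its sum (−0.65, adjusted p = 0.0748) but held 19 intervals called lower and 1 called higher of 34, and Apob (−0.38, adjusted p = 0.178) held 4 called lower of 57. Cps1 (0.04, adjusted p = 0.984), Apoa1 (−0.29, adjusted p = 0.572) and Serpina1a (−0.28, adjusted p = 0.215) had no call in their sums or in any interval, and 51 of the 125 Cps1 intervals were below 0. The summed hepatocyte markers ranged from 2481 to 4630 CPM in floxed and from 2216 to 3131 CPM in knockout libraries. Cps1 alone ranged from 495.7 CPM in floxed library 3 to 2079 CPM in floxed library 1, and from 945.7 to 1423 CPM in the knockouts. Markers of Kupffer cells and macrophages (88.7 to 133.5 CPM floxed, 112.6 to 131.9 knockout), sinusoidal endothelium (340.6 to 406.1, 360.0 to 401.7), stellate cells (72.8 to 93.3, 73.4 to 98.2), lymphocytes (46.3 to 57.7, 48.4 to 51.0) and biliary cells (32.6 to 40.3, 38.4 to 45.3) overlapped between genotypes. Of the 18 Kupffer cell and macrophage intervals 14 were above 0 and 4 below, with a median log2 of 0.26 and no call. In floxed library 3 Clec4f (55.45 CPM) and Csf1r (54.25 CPM) were higher than in the other floxed libraries. Median log2 values were −0.04 for endothelium, 0.07 for stellate cells, 0.08 for lymphocytes and 0.22 for biliary cells. Timd4, Dcn, Nkg7 and Krt19 had no interval in that table. The part of cell makeup in the Sult2a result was not tested.

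The Sult2a1 sum was also set against the sums of the other genes within each library. The log2 ratio of the Sult2a1 sum to the Sult1e1 sum was −0.30 to −0.15 in the floxed and −1.51 to −0.82 in the knockout libraries on the high-fat diet. The ratio of Sult2a1 to Sult1a1 was −1.99 to −1.32 in floxed and −2.67 to −2.19 in knockout libraries, and the ratios to Sult1d1 and Sult3a1 were likewise separated, with mean differences of −0.92 and −1.20. The ratio of Sult2a1 to Sult2a2 overlapped between genotypes, at 1.11 ± 0.17 in floxed and 1.15 ± 0.29 in knockout libraries (SD, n = 4). These ratios were computed with the fall of Sult2a1 known and are descriptions without a test.

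Sult1a1, the phenol sulfotransferase gene, was the most accessible of the 6, with 12 high-fat intervals. Its sum held 162.6, 170.2, 97.1 and 129.5 CPM in the floxed and 130.4, 139.1, 105.8 and 105.5 CPM in the knockout libraries. The groups overlapped, with floxed library 3 the lowest of all 8, and the log2 fold change of −0.22 (SE 0.14) had an adjusted p of 0.645 (edgeR). None of its 12 intervals was called. Of these 10 were below 0, but 10 of the 12 were named from floxed peaks, so the signs are not independent of the choice. The interval over its start (chr7:126676147-126676647), which overlaps part of the region printed above, had a mean of 21.8 ± 5.27 CPM (floxed) and 18.6 ± 1.55 CPM (knockout) (log2 −0.23, SE 0.15, adjusted p = 0.648). The smallest adjusted p among its intervals was 0.272, for the next interval downstream of the start (chr7:126675630-126676130; 9.34 ± 1.93 against 6.09 ± 2.16 CPM, log2 −0.61, SE 0.23). The midpoints of 2 intervals at its upper end also lay inside the neighbouring gene Slx1b.

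Sult1e1, the estrogen sulfotransferase gene, held 47.5, 63.9, 48.1 and 50.0 CPM in the floxed and 49.7, 46.5, 51.9 and 47.7 CPM in the knockout libraries on the high-fat diet. Apart from floxed library 2, all libraries lay between 46.5 and 51.9 CPM, and the log2 fold change was −0.10 (SE 0.10, adjusted p = 0.798). Its strongest interval (chr5:87601069-87601569), 9708 bp upstream of the start, held 18.0 ± 5.46 CPM (floxed) and 18.0 ± 2.398 CPM (knockout). The 2 intervals between Sult1e1 and Sult1d1 were assigned to Sult1e1 as the nearer gene and were below 0 (log2 −0.29, SE 0.17, and −0.33, SE 0.22), with adjusted p-values of 0.608 and 0.653.

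Sult1d1, the catecholamine sulfotransferase gene, held 19.7 to 22.6 CPM in floxed and 16.7 to 21.7 CPM in knockout libraries (log2 −0.12, SE 0.12, adjusted p = 0.798). Its start interval (chr5:87568819-87569319) held 7.01 ± 0.482 against 6.71 ± 0.694 CPM (log2 −0.07, SE 0.20, adjusted p = 0.954). The interval 1518 bp inside the gene (chr5:87567238-87567738) held 5.62, 6.73, 5.78 and 8.41 CPM in the floxed and 3.97, 4.85, 5.09 and 4.80 CPM in the knockout libraries. Its groups were separated but it was not called (log2 −0.51, SE 0.22, adjusted p = 0.408). Over all high-fat intervals, 2.5% were separated with the knockouts lower, and among the 30 intervals of the 6 genes 7 were, this one and 6 of Sult2a1 and Sult2a2. All 7 were named from floxed peaks, so their separation is not independent of that choice.

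Sult3a1, the amine sulfotransferase gene, was the only one of the 6 whose high-fat sum was above 0 (log2 0.16, SE 0.18, adjusted p = 0.835; 10.2 ± 1.53 against 11.4 ± 2.17 CPM). Its groups overlapped. Neither of its intervals was called, the one across its lower bound (chr10:33850760-33851260) at log2 0.38 (SE 0.22, adjusted p = 0.588) and the other at −0.14 (SE 0.27, adjusted p = 0.921). Both intervals were named from knockout peaks, so the sign of the sum is not independent of that choice.

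**Figure D3:**
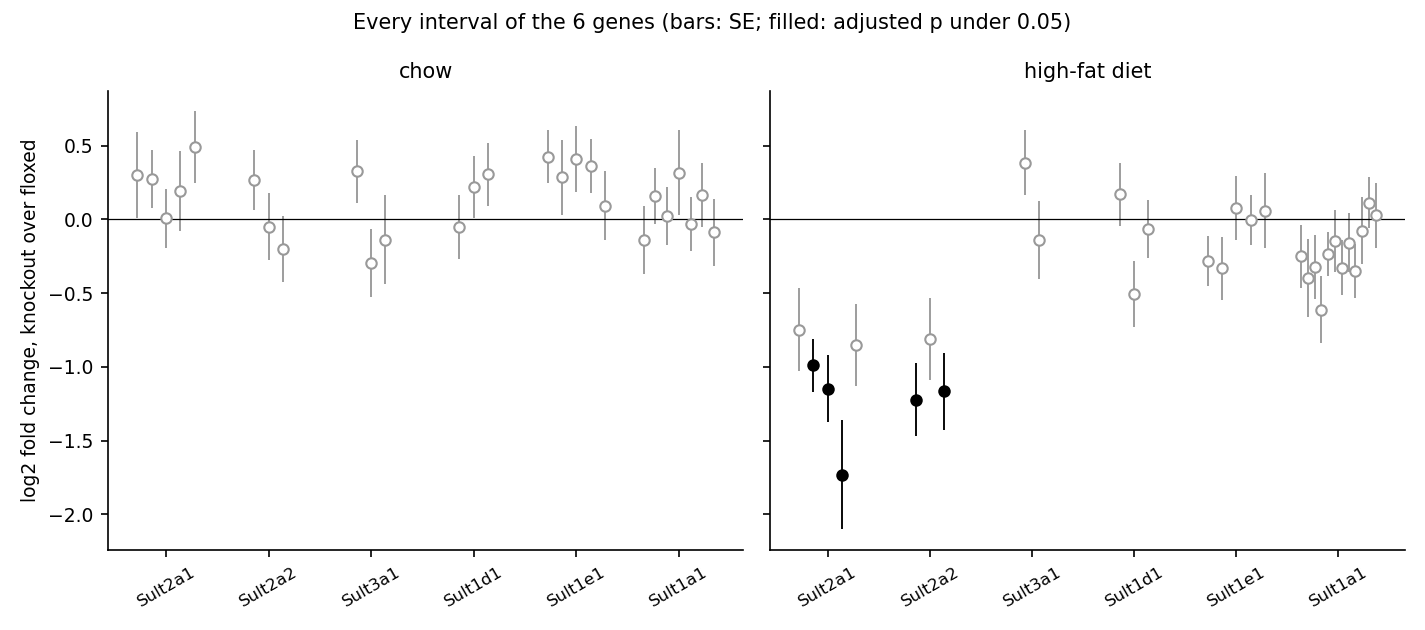
Log2 fold change (knockout over floxed) with SE of every interval of the 6 genes, in genomic order within each gene, on chow (left, 26 intervals) and the high-fat diet (right, 30); filled points have an adjusted p under 0.05. The 8 high-fat intervals of Sult2a1 and Sult2a2 lie at or below −0.75, and no interval on chow is called.

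On chow, none of the 26 intervals was called by edgeR, DESeq2 or limma-voom, and 1 had an unadjusted p under 0.05; over all chow intervals 0.0227% were called. That share, 20 intervals, fell to 0 without knockout 1 or floxed 1 and rose to 604 intervals without floxed 2. None of the 6 summed genes was called either (0% of 15932 over all genes by edgeR, with 1047 at an unadjusted p under 0.05; DESeq2 called 38 and limma-voom 1 over all genes, none of the 6). Sult2a1 held 36.2, 26.5 and 37.1 CPM in the 3 floxed and 42.9, 36.3 and 38.8 CPM in the 3 knockout libraries, with overlap and a log2 fold change of 0.24 (SE 0.14, edgeR adjusted p = 0.718). Its 5 chow intervals had fold changes from 0.01 to 0.49, and 4 of them were named from peaks of knockout livers, so their signs are not independent of how they were chosen. Sult2a2 held 19.2, 16.1 and 19.1 CPM in the floxed and 21.2, 18.2 and 14.5 CPM in the knockout libraries (log2 −0.02, SE 0.16, adjusted p = 0.982).

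Among the other genes on chow, Sult1e1 had the largest fold change, 0.32 (SE 0.14, edgeR adjusted p = 0.718), from 51.0 ± 6.25 to 63.8 ± 10.7 CPM (SD, n = 3). Its 5 intervals, all named from knockout peaks, were above 0, and these signs too are not independent of that choice. They included the 2 between Sult1e1 and Sult1d1, assigned to Sult1e1 as the nearer gene (log2 0.42, SE 0.18, and 0.28, SE 0.26). Sult1d1 (0.16, SE 0.17), Sult1a1 (0.05, SE 0.16) and Sult3a1 (−0.07, SE 0.18) had adjusted p-values between 0.776 and 0.930. Groups were separated in 2 of the 26 intervals, 1 of Sult1e1 and 1 of Sult2a1, both higher in the knockout, where 11.7% of all chow intervals were separated in either direction. These 2 intervals were named from knockout peaks. Both chow libraries numbered 2 were the shallowest, at 15.5 and 17.1 M reads, and floxed library 2 had the lowest value of its group for every one of the 6 genes.

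Whether the genotype effect differed between diets was tested on 73945 intervals found in both tables with at least 50% overlap, 21 of them belonging to the 6 genes. Gene sums in this test add matched intervals only, 3 for Sult2a1 and 2 for Sult2a2, so they are not the sums given above. The called high-fat intervals at 23.2 kb (Sult2a1) and 37.1 kb (Sult2a2) had no such match. The difference (high-fat effect minus chow effect) for the Sult2a1 sum was −1.18 on the log2 scale (SE 0.22) and missed the threshold (edgeR adjusted p = 0.0711). It passed with DESeq2 (adjusted p = 0.00128), with library totals for scaling (0.0401), without both chow libraries numbered 2 (0.0188), and on leaving out chow knockout 2 (0.0281), chow floxed 2 (0.0416) or high-fat floxed 3 (0.0426). Its highest adjusted p over the alternatives was 0.229. All high-fat intervals of Sult2a1 were named from floxed peaks. The chow intervals matched to those at 18.1 and 41.2 kb were named from knockout peaks, and the one matched at 21.0 kb from floxed peaks. The difference for Sult2a1 is therefore not independent of how the intervals were chosen. For Sult2a2 the difference was −0.86 (SE 0.27, adjusted p = 0.431), and the other 4 genes lay between −0.41 and 0.09, with adjusted p-values of at least 0.652. No member interval was called, with 7 of 21 at an unadjusted p under 0.05 and 2 called by DESeq2; the 18.1 kb interval of Sult2a1 came nearest, at −1.23 (SE 0.28, adjusted p = 0.0769). Over all features 0.183% of intervals and 0.0392% of summed genes were called in this comparison. Each diet sits in a table that was made separately, so levels of a gene were not compared between diets. The tables also differed in depth, and a 12 h fast is stated for the high-fat animals only. In this contrast diet cannot be told apart from fasting, depth or the separate making of the tables.

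A further 15 sulfotransferase genes were examined in the same way, and 12 of them held intervals. On the high-fat diet 1 of the 12 was called, Sult2a3, a SULT2A gene close to Sult2a1. Its 2 intervals summed to 14.0, 16.8, 17.1 and 18.2 CPM in floxed and 6.35, 7.14, 7.82 and 8.97 CPM in knockout libraries. The groups did not overlap, and the log2 fold change was −1.13 (SE 0.16, edgeR adjusted p = 0.00153). One of its intervals was called (chr7:14131354-14131854; log2 −1.04, SE 0.19, adjusted p = 0.00470). That interval lay upstream of the start region printed above, which no interval covered.

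The other SULT2A genes with intervals were not called. Sult2a5 (−0.22, SE 0.12), Sult2a6 (−0.23, SE 0.18), Sult2a7 (−0.27, SE 0.13) and Sult2a8 (−0.28, SE 0.12), the last a bile acid sulfotransferase of mouse liver, had adjusted p-values between 0.394 and 0.740. The groups were separated for Sult2a5 (15.6 to 17.2 CPM floxed, 13.7 to 14.5 CPM knockout). The start region of Sult2a3 was 75.9% identical to that of Sult2a5 and 71.8% identical to that of Sult2a6 in a global alignment. Sult2a4, Sult1c1 and Sult6b1 had no interval in either table. Outside the SULT2A cluster, Sult3a2 was separated upward without a call (0.32, SE 0.12, adjusted p = 0.365), and Sult4a1 had a log2 value of −0.68 (SE 0.29, adjusted p = 0.418) from 1 interval. The median over the 12 genes was −0.23 on the high-fat diet and −0.04 on chow, where none of them was called (smallest adjusted p 0.718), against −0.001 and −0.005 over all genes.

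**Figure D4:**
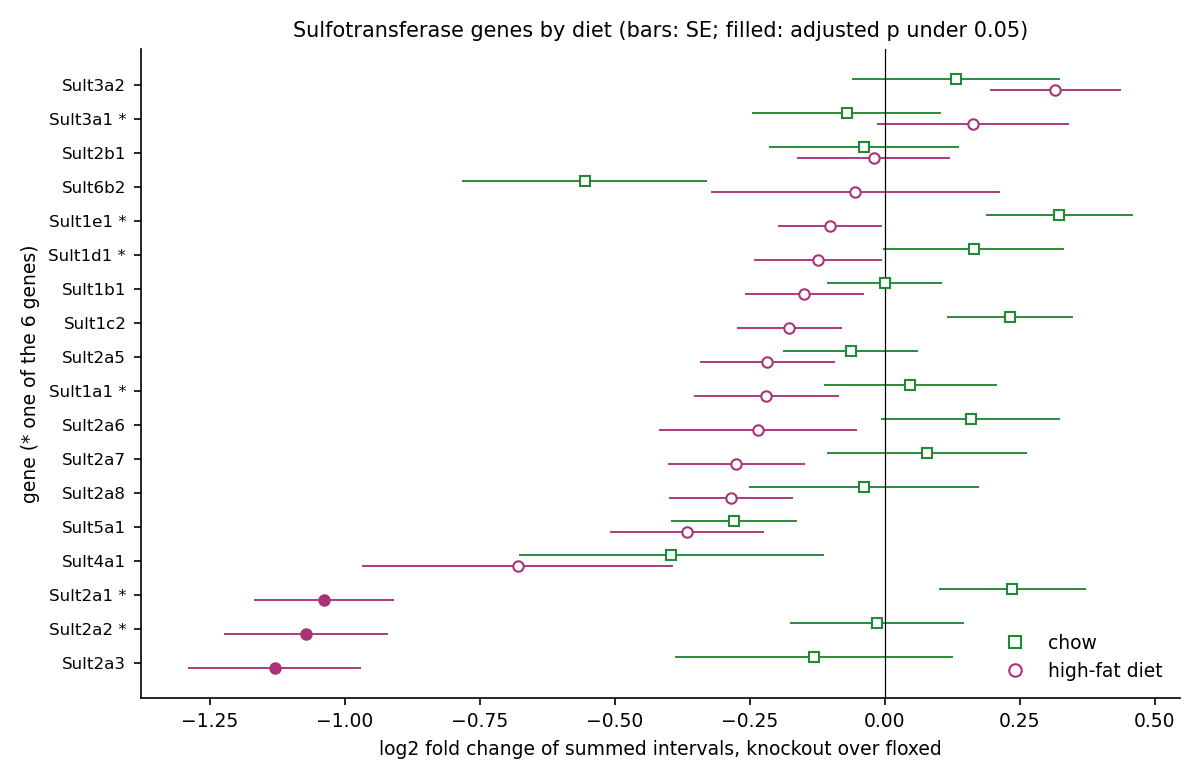
Log2 fold change of summed intervals (knockout over floxed) with SE for the 18 sulfotransferase genes that held intervals, ordered by the high-fat value; squares are chow, circles the high-fat diet, and filled symbols have an adjusted p under 0.05. Sult2a1, Sult2a2 and Sult2a3 are the filled circles, between −1.13 and −1.04, and no chow symbol is filled.

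Of 10 genes listed for sulfate supply and removal, 9 held intervals, and none of the 9 passed the test on either diet. The sulfatase gene Sts held no interval in either table and was not tested. On the high-fat diet 6 of the 9 were below 0, with a median of −0.05. Papss2, which makes the donor PAPS and is the main form of that enzyme in liver, had the largest change (180.0 ± 31.6 to 141.1 ± 13.9 CPM; log2 −0.35, SE 0.11, edgeR adjusted p = 0.192), and Papss1, the second such enzyme, was at 0.08 (SE 0.07, adjusted p = 0.784). The sulfate transporter Slc26a1 was at −0.23 (SE 0.10, adjusted p = 0.464), and the PAPS transporters Slc35b2 and Slc35b3 were at −0.23 (SE 0.10) and 0.20 (SE 0.11).

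Receptors and factors listed as regulators of liver sulfotransferase genes were not called as summed genes. Cux2, a factor of female liver, had 1 of its 31 high-fat intervals called (chr5:121917411-121917911), from 9.99 ± 1.80 to 4.40 ± 2.35 CPM (log2 −1.17, SE 0.25, adjusted p = 0.0164), while its sum was at −0.31 (SE 0.17, adjusted p = 0.578). It was the 1 call among 268 high-fat intervals of these receptors and factors, a share near the 0.303% called lower over all intervals. Nr1i3, encoding the xenobiotic receptor CAR, was at −0.45 (SE 0.13, adjusted p = 0.174). Nr1i2 (the receptor PXR), Nr1h4 (the bile acid receptor FXR), Hnf4a and Stat5b lay between −0.19 and 0.03, with adjusted p-values of at least 0.390.

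Among 6024 genes with at least 5 intervals and a level at or above the median, those most like each sulfotransferase gene over the 8 high-fat libraries were found by Pearson correlation of the sums, given as a description over libraries that also differ in genotype. For Sult2a1 they were Dgkd (r = 0.979), Akr1c14 (0.976) and Cyp3a41b (0.975), and for Sult2a2 Dll1 (0.983), Setbp1 (0.966) and Akr1c14 (0.951). Sult2a1 and Sult2a2 correlated with each other at 0.933, and Sult2a1 with the other 4 genes between −0.41 and 0.52. Sult1a1 was most like Stat5b (0.991), Pdlim1 (0.989) and Pgpep1 (0.987), Sult1e1 like Fmo2 (0.935), Lpp (0.924) and Ei24 (0.923), Sult1d1 like Klhl2 (0.956), Zfp266 (0.936) and Zkscan17 (0.921), and Sult3a1 like Nbeal2 (0.946), Rab22a (0.908) and Wdfy4 (0.906). These genes were picked as the highest of 6024 over 8 libraries, so large values can arise through selection alone, and none was tested.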

How the data were processed

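Chromatin accessibility was measured by ATAC-seq in 14 livers. The authors deposited 1 table per diet of whole-number read counts per interval and library, in mm10 coordinates per the labels. Per the submitters' processing notes, Bowtie2 2.4.2, MACS2 2.2.7.1, Trim Galore 0.6.7 and bedtools were among the tools, with no role stated. The sources used here do not state how duplicate, mitochondrial or multiply placed reads and the transposase offset were treated. High-fat columns match single samples by label. Chow columns show the genotype and a number only, so each served as a member of its group. Each library was taken as 1 animal, since sample titles count the females within a diet.

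Each table was fitted with edgeR 4.0.16 in R 4.3.3 (TMM scaling, filterByExpr, which removed no row, quasi-likelihood test of genotype), with Benjamini-Hochberg adjustment over the whole table. Gene sums add the counts of all intervals assigned to a gene and were fitted likewise. The difference between diets was fitted over all 14 libraries on matched intervals. The alternatives used limma 3.58.1 (voom, quality weights) and DESeq2 1.42.0. On simulated data the scripts recovered the changes they were given. Every pair of libraries within a group differed beyond counting noise (smallest chi-square per degree of freedom 2.49). Sequences were aligned with Biopython.

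The members and gene lists were chosen with earlier results of these data known. Named intervals per gene were those with the highest level, over the start, or with the smallest p, and any that were called; listed genes were described where they were called or by role. Assignment uses gene bounds from RefSeq on GRCm38.p6, without exons. One result is not reported here because its item is withheld.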

Additional observations from a re-analysis of the deposited data

Results flagged for a closer look

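In 4 of 72 groups of 4 high-fat libraries checked, 1 library stood apart from the others of its group, and chance flags about 1 in 20 groups. The Sult1e1 sum in floxed library 2, at 63.89 CPM, was above the other floxed libraries. For the Sult1e1 interval at 87589880, floxed library 1 was highest at 6.855 CPM. For the Sult2a1 interval at 13819189, knockout library 4 was lowest at 0.3788 CPM, from 3 reads. For the Sult1a1 interval at 126681045, floxed library 3 was lowest at 9.8 CPM.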

How the results depend on the processing

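The high-fat calls of the Sult2a1 and Sult2a2 sums held under all 17 alternatives (largest adjusted p 0.00698 and 0.0152). The count of called high-fat intervals was 5, ranged from 2 to 5 on leaving out 1 library, and was 4 with limma-voom and 4 without knockout 1 and floxed 3, an alternative chosen after seeing the data. The Sult2a2 interval at 13770393 lost its call under 6 alternatives (adjusted p up to 0.107), the Sult2a1 interval at 13819189 under 2 (0.0785 without knockout 4, 0.0724 without floxed 2), and those at 13817007 and 13733256 without floxed 2 (0.0554 and 0.0715). For the difference between diets, 0 intervals were called against 2 with DESeq2 and 1 without both chow libraries numbered 2 (0 to 1 on leaving out 1 library); 0 summed genes were called against 1 with DESeq2, 1 with library totals and 1 without both chow libraries numbered 2 (0 to 1 on leaving out 1 library). The cause was not tested. Without 1 library, uncalled values changed sign within these ranges: chow sums of Sult1a1 (−0.14 to 0.19), Sult2a2 (−0.15 to 0.12) and Sult3a1 (−0.25 to 0.0471), the high-fat sum of Sult1e1 (−0.15 to 0.0124), and diet differences of the Sult3a1 sum (−0.0577 to 0.20) and of its interval at 33850760 (−0.0538 to 0.20). Over all chow intervals, calls went from 20 to 544 with DESeq2 and 677 with limma-voom, ranged from 0 to 604 on leaving out 1 library, and were 333 without both libraries numbered 2, with 0 of the 6 genes. High-fat interval calls over the whole table ranged from 304 to 1189 on leaving out 1 library. Whether numbers in the high-fat labels pair the libraries could not be decided from these few weak correlations. Same-numbered deviations correlated at 0.067, 0.13, 0.18 and −0.0094, and different-numbered ones at −0.18 to 0.15. Not every library correlated best with its own number. With a replicate block the fit called 5 of the 30 high-fat intervals and 2 of the 6 sums, while all calls went from 795 to 1420 intervals. No paired analysis was possible for chow or the difference between diets because the numbers in the chow column names could not be tied to labelled samples. Depth limited the weakest interval to 3 to 52 reads.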
